A study of Mus musculus with 20 samples.

Results

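The 40 genes described here copy the genome and divide the cell in S phase and mitosis. They were chosen by name from a list of replication and mitosis genes, and all 40 had a row among the 27179 genes of the deposited table. RNA was sequenced from striatum and hippocampus of C57BL/6 mice labelled wild type or Helios full knockout. Helios, the product of Ikzf2, is a transcription factor of the Ikaros family. The 4 groups held 5 libraries each, wild type striatum, knockout striatum, wild type hippocampus and knockout hippocampus. Age, sex, the design of the knockout allele and whether each library came from its own animal were not given in the sources used here, so each p-value measures only how much these libraries vary, and that variation may be technical. Expression is given as RPKM, reads scaled to gene length and to library size, which allows levels to be compared between genes. Differences are on the log2(RPKM + 1) scale, which understates the change of genes with low values.

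Before a cell copies its DNA, CDC6 and CDT1 load the MCM helicase ring at replication origins. E2F factors switch on many genes of licensing and synthesis at the start of S phase, and the DREAM and MuvB complexes, together with B-MYB and FOXM1, control many genes of G2 and mitosis through CHR elements. In the developing forebrain, most of the cells that use these genes are progenitors of the germinal zones, and neurons shut the genes off when they leave the cycle. In whole tissue, fewer dividing cells and less RNA per dividing cell cannot be told apart.

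The promoters of 4 members are shown because these genes lead the comparisons that follow: Mcm6 and Prim1 differed most between the tissues, Ccnb2 passed the test between the knockout tissues, and Plk1 was among those with the smallest p between the striatal genotypes. Each window runs from 250 bases before to 50 bases after the start of the gene, 5′ to 3′, from RefSeq on build GRCm38.p6. Capitals mark E2F sites (TTTCGCGC, TTTGGCGC, TTTCCCGC or TTTGCCGC), CHR elements (TTTGAA or TTCGAA) and CCAAT boxes (CCAAT), each read on both strands. The Mcm6 window lies at chr1:128359656-128359955 on the minus strand, that of Prim1 at chr10:128014965-128015264 on the plus strand, that of Ccnb2 at chr9:70421505-70421804 on the minus strand and that of Plk1 at chr7:122159185-122159484 on the plus strand.
Mcm6: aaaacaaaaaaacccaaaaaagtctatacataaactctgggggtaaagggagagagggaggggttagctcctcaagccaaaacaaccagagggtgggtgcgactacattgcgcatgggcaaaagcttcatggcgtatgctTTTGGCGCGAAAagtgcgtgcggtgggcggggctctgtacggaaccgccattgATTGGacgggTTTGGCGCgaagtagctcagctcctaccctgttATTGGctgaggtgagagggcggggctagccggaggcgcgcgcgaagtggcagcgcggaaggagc
Prim1: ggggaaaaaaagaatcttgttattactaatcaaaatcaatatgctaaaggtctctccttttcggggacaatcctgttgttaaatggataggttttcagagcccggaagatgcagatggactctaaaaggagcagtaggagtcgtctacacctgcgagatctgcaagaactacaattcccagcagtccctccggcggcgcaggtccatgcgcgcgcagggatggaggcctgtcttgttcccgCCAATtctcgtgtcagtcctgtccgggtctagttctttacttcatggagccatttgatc
Ccnb2: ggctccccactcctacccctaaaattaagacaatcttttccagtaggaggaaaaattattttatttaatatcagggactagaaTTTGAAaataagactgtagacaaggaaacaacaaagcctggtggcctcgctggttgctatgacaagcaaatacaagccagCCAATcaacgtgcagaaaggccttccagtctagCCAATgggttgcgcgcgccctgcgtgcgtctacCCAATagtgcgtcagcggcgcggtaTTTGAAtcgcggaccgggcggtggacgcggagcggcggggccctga
Plk1: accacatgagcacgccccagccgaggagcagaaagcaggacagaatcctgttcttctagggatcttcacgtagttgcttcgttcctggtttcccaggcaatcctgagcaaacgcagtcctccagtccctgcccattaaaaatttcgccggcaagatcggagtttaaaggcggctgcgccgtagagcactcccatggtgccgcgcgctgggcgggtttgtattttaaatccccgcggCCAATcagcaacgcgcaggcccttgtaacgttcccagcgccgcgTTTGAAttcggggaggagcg
The Mcm6 window held 3 E2F matches, of which the first pair overlaps in a single run of capitals, and 2 CCAAT boxes, but no CHR match. Ccnb2 held 2 CHR elements and 3 CCAAT boxes, and Plk1 held 1 of each, with no E2F match in either. Prim1 held 1 CCAAT box and no match to the other motifs.

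A window was at hand for 32 of the 40 members. An E2F match was found in 7 of the 15 windows of the licensing, fork and nucleotide genes, in 1 of the 17 windows of the G2 and mitosis genes, and in 2.32% of the first listed windows of all 27025 genes. The 7 were Cdc6, Cdt1, Mcm3, Mcm5, Mcm6, Mcm7 and Pola1, and the 1 was Cdk1. CHR elements had the reverse distribution, with 3 of the 15 windows, 12 of the 17 and 19.4% of all genes. CCAAT boxes were found in 10 of the 15, in 14 of the 17 and in 37.9% of all genes. These matches are a description of letters in the windows and show no binding.

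**Figure D1:**
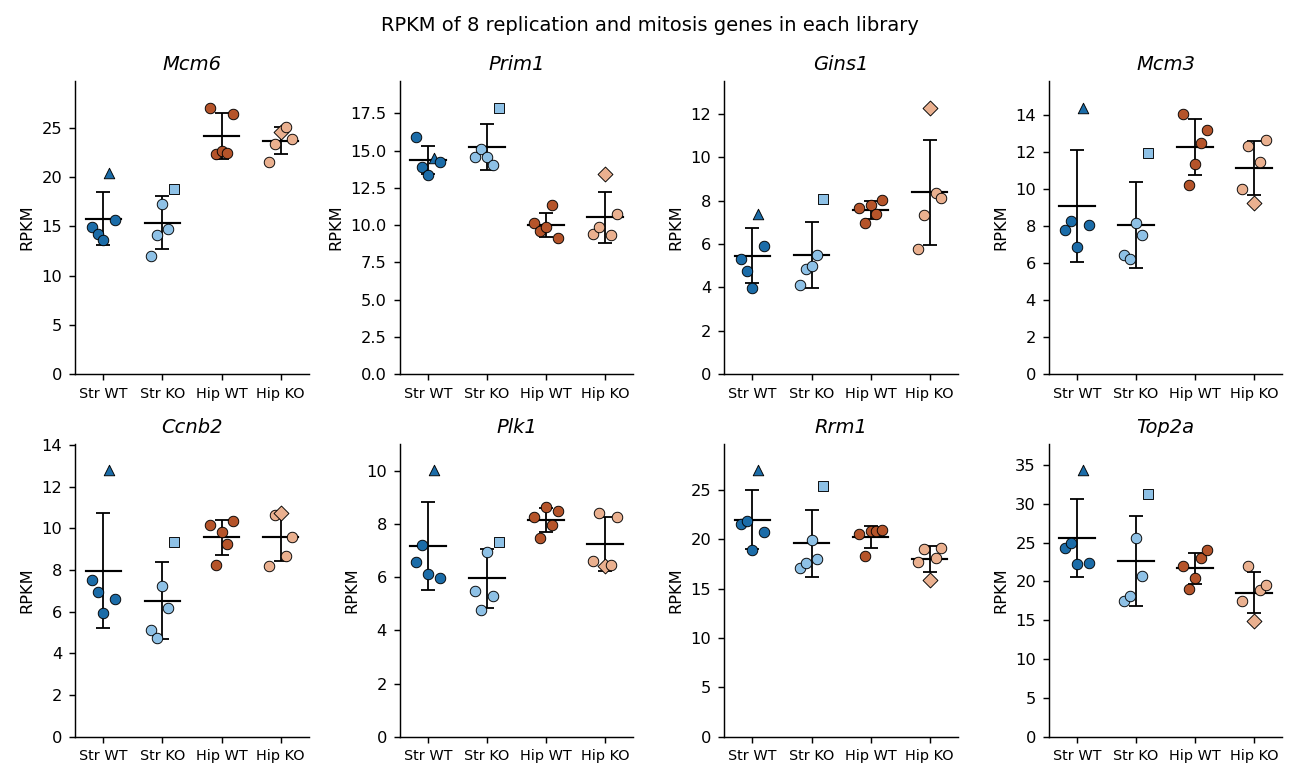
RPKM of 8 members in each of the 20 libraries, on linear axes from 0. Str is striatum, Hip hippocampus, WT wild type and KO knockout; lines with bars are the mean ± SD of 5 libraries. The triangle is striatum wild type replicate 4, the square striatum knockout replicate 10 and the diamond hippocampus knockout replicate 8. Mcm6 is lower and Prim1 higher in every striatal than in every hippocampal library of the same genotype, while the tissue ranges of the other 6 genes overlap in both genotypes.

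All 40 genes were expressed in every library. Mean RPKM over the 20 libraries ran from 1.35 for Cdc6 to 58.3 for Pcna, with a median of 9.20 over the members. Each value rested on between 77 and 7212 reads, out of 15570190 to 36078339 reads per library over genes, and no member had a decimal mark that stayed unsure (the processing account describes how marks were restored). The tissue labels were checked with 7 genes of striatal projection neurons, whose mean log2(RPKM + 1) was 4.90 to 5.70 in the striatal libraries and no higher than 2.63 in any hippocampal library. Ikzf2 itself was 2.09 to 3.66 RPKM in wild type and 0.76 to 1.11 RPKM in knockout striatum, without overlap. In hippocampus it went against the labels of 2 libraries, with 0.782 RPKM in the library labelled wild type replicate 6 and 1.43 RPKM in the library labelled knockout replicate 5, while the other wild type libraries were at 1.32 to 1.61 and the other knockout libraries at 0.353 to 0.785. Their codes, 7_1 and 7_6, carry the opposite genotype in the striatal labels, so the members' counts in the tissue and hippocampal genotype comparisons are also given without these codes. The hippocampal library labelled knockout replicate 10 has a tissue tag of striatum and was placed by its title.

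A few libraries stood apart in the members themselves. Averaged over the 40 genes, log2(RPKM + 1) was 3.67 in striatum wild type replicate 4 and 3.05 to 3.25 in the other 4 wild type striatal libraries, and all 40 members were above the mean of those 4. The same library was high in markers of other cells, with 3.36 against 0.56 to 1.72 for 7 meningeal genes and 3.15 against 1.28 to 1.96 for 3 genes of cortical intermediate progenitors, such as Eomes at 37.3 RPKM against 2.70 to 7.20. Its 8 radial glia genes were at 5.98 against 5.12 to 5.35. Its microglial genes were at 2.10 against 1.38 to 1.86 and its endothelial genes at 3.22 against 2.94 to 2.99. Its 5 subpallial progenitor genes, at 3.94, were within the 3.64 to 4.01 of the other 4. Its striatal projection neuron genes were at 4.90, below the 5.15 to 5.55 of the other 4. Its genes of hippocampal fields were at 2.53, below 2.96 to 3.76. Striatum knockout replicate 10 also exceeded the mean of its group in all 40 members, at 3.53 against 2.91 to 3.26. Its progenitor markers were above those of the other 4, at 5.54 against 5.01 to 5.43 for 8 radial glia genes, 4.01 against 3.35 to 3.86 for 5 subpallial progenitor genes and 1.65 against 1.18 to 1.53 for the intermediate progenitor genes. Its 5 endothelial genes were below them, at 2.77 against 2.84 to 3.06, and its meningeal genes, at 0.80, were within the 0.73 to 0.84 of the others. The part of these other cells in the members' levels was not tested.

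Hippocampus knockout replicate 8 differed from the other 4 libraries of its group according to gene length. All 10 members longer than 4000 bases were lower than the mean of the others, with a median difference of -0.36, and 14 of the 17 members shorter than 2500 bases were higher, with a median of 0.21. Cenpf, the longest at 11130 bases, was at 2.87 RPKM, and Ube2c, the shortest at 931 bases, was at 29.1 RPKM. Over all genes the pattern was the same, with medians of -0.54 above 4000 bases and 0.43 below 2500 bases, so it was not particular to the members. This library had the lowest number of reads, 15570190, and its 7 meningeal genes were at 4.17 against 3.22 to 3.48 in the others of its group. Its microglial genes were at 2.69 against 2.11 to 2.53 and its erythroid genes at 4.24 against 3.87 to 4.01. Endothelial genes were lower in it, at 2.89 against 3.21 to 3.55, as were subpallial progenitor genes, at 2.48 against 2.55 to 2.69. Cell cycle transcription factors were at 2.73 against 3.01 to 3.10. Its radial glia genes, at 5.76, were within 5.52 to 5.85.

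**Figure D2:**
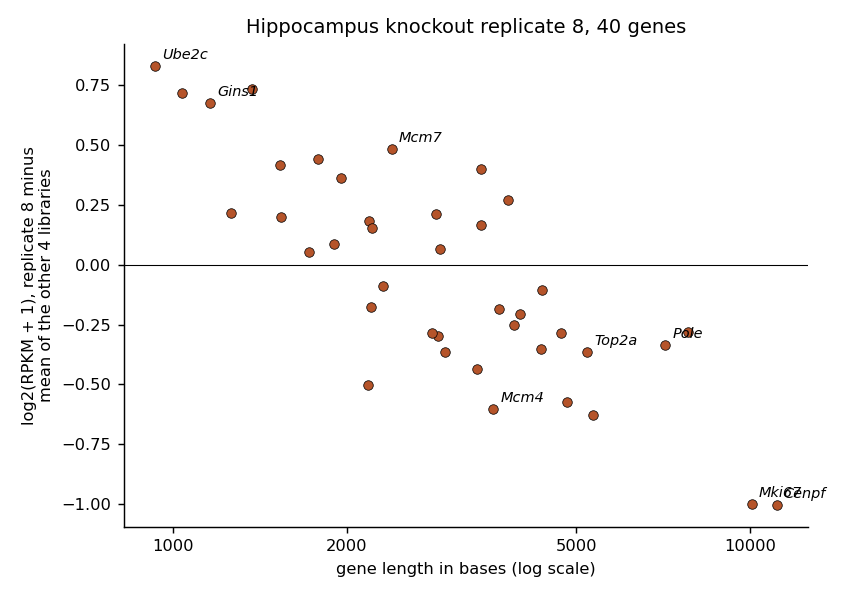
Difference of hippocampus knockout replicate 8 from the mean of the other 4 knockout hippocampal libraries, in log2(RPKM + 1), for the 40 members against gene length in bases on a log axis. The lowest point is the long gene Cenpf and the highest the short gene Ube2c, at 0.83.

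Wild type striatum was compared with wild type hippocampus first. In limma over 14002 genes, 8 of the 40 members passed an adjusted p of 0.05 (Benjamini-Hochberg), 1 higher and 7 lower in striatum, where 44.8% of all genes passed, 21.2% higher and 23.6% lower. Their median difference was -0.09, against -0.01 over all genes, and 26 of the 40 differences were below 0, as were 50.8% of those of all genes. All 8 that passed act in licensing, at the fork or in nucleotide supply: 4 of the 8 licensing genes fell, 1 fork gene rose and 2 fell of 7, and 1 of 4 nucleotide genes fell. In the tissue comparisons, counts of genes that rose or fell, or were higher or lower, are of genes that passed, except where overlap is named. None of the 21 genes of G2 and mitosis passed, and 2 of them, Bub1b and Cenpf, had an unadjusted p below 0.05, where 52.4% of all genes did.

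Mcm6, a subunit of the MCM helicase, had 14.9, 14.2, 13.7, 20.4 and 15.7 RPKM in wild type striatum, in the order of replicate numbers 1 to 5. In wild type hippocampus, in the order 1, 2, 3, 4 and 6, it had 27.1, 22.4, 22.7, 22.4 and 26.4 RPKM. Every striatal library was below every hippocampal one, with the closest striatal value in replicate 4. The difference was -0.59 ± 0.10 (SE), adjusted p = 6.57e-04. Mcm6 was the only member lower without overlap, as were 16% of all genes tested.

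Among the other MCM subunits, Mcm2 was 8.43, 8.38, 7.08, 11.2 and 7.42 RPKM in striatum and 12.4, 9.96, 10.5, 11.2 and 11.6 RPKM in hippocampus, a difference of -0.36 ± 0.10 (SE), adjusted p = 0.0146. Mcm4 was 10.2, 9.81, 9.24, 14.7 and 9.37 against 15.1, 11.9, 14.0, 13.7 and 14.2 RPKM, a difference of -0.36 ± 0.11 (SE), adjusted p = 0.0217. Mcm3 was 7.79, 8.29, 6.86, 14.4 and 8.08 against 14.1, 10.2, 11.3, 12.5 and 13.2 RPKM, a difference of -0.43 ± 0.16 (SE), adjusted p = 0.0457. In each of these 3 genes striatal replicate 4 lay within the hippocampal range or above it, and the other 4 striatal libraries lay below it. Mcm5 and Mcm7 were at -0.03 and -0.08 and did not pass, so that within a helicase built of 6 different subunits the differences ran from -0.59 to -0.03. Mcm7, the subunit with the highest level, had 28.8, 29.0, 24.7, 31.2 and 28.9 RPKM in striatum and 32.5, 30.1, 28.9, 30.7 and 29.0 RPKM in hippocampus, ranges that overlapped. The loaders Cdc6 and Cdt1 were at 0.00 and -0.12 without passing. Of the annotated exonic bases of Mcm7, 172 are shared with the microRNAs Mir106b, Mir93 and Mir25 on the same strand and 385 with Ap4m1 and Cops6 on the opposite strand. These bases are taken over all annotated transcripts, 4426 in Mcm7, while the length found in the deposited values is 2396. Whether the shared bases were counted is uncertain.

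Prim1, the catalytic subunit of primase, was the only member that passed as higher in striatum, while 14 of the 40 differences were above 0. Its values were 15.9, 13.9, 13.3, 14.5 and 14.2 RPKM in striatum and 10.1, 9.61, 9.85, 11.3 and 9.13 RPKM in hippocampus. All 5 striatal libraries were above all 5 hippocampal ones, as in 15.2% of all genes, and replicate 4 lay within the range of the other striatal libraries. The difference was 0.48 ± 0.06 (SE), adjusted p = 8.91e-05. Its partner Pola1, the catalytic subunit of DNA polymerase alpha, was at 0.13 with an adjusted p of 0.132.

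Gins1, a subunit of the GINS complex of the fork helicase, was 5.30, 4.76, 3.98, 7.36 and 5.91 RPKM in striatum and 7.66, 6.99, 7.81, 7.40 and 8.04 RPKM in hippocampus, a difference of -0.43 ± 0.12 (SE), adjusted p = 0.0108. Pole, the catalytic subunit of leading strand polymerase epsilon, was 2.71, 2.73, 2.74, 3.22 and 2.70 against 3.50, 3.34, 3.38, 3.15 and 3.64 RPKM, a difference of -0.20 ± 0.06 (SE), adjusted p = 0.0178. In both genes replicate 4 was the highest of the striatal values and the only one to reach the hippocampal range. Pcna, the sliding clamp of the polymerases, had 57.3, 57.6, 45.3, 76.0 and 59.0 RPKM in striatum and 59.7, 55.0, 55.8, 59.9 and 58.1 RPKM in hippocampus. Its tissue means were close, at 59.0 ± 11.0 and 57.7 ± 2.22 RPKM (SD, n = 5), and the difference of 0.01 did not pass. Gins2 and Fen1, the flap endonuclease, did not pass either. Of their annotated exonic bases, Gins2 shares 2758 with Gse1 and Fen1 2039 with Tmem258 and Gm10143, all on the opposite strand. Kif20a of the spindle group shares 1271 with Cdc23 in the same way. The length found for Gins2 in the deposited values, 1038 bases, is shorter than its overlap, and strand use in counting is not given. Whether the overlaps touched these values is therefore uncertain.

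In nucleotide supply, Tyms, the thymidylate synthase, was 2.42, 2.43, 2.21, 3.59 and 2.38 RPKM in striatum and 3.53, 3.12, 3.45, 3.08 and 3.19 RPKM in hippocampus, a difference of -0.26 ± 0.09 (SE), adjusted p = 0.0461. Replicate 4 was again the only striatal value to reach the hippocampal ones. Rrm1 and Rrm2, the subunits of ribonucleotide reductase, were at 0.11 and 0.23, and Tk1, the thymidine kinase of S phase, at -0.27, without passing. Pseudogenes named after Tyms, Pcna, Ccnb1 and Ccnb2 are annotated, and reads shared with such copies could not be separated.

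The number of calls depended on striatal replicate 4. Without it, 20 members were lower and 1 higher in striatum, where 29.7% of all genes were lower and 25.3% higher, and the median of the members was -0.19. The 13 members that were added were Gins2 at the fork, Tk1 in nucleotide supply, all 7 cyclins and kinases, Bub1b and Cdc20 of the checkpoint and anaphase group, and Cenpf and Tpx2 of the spindle group. Ccnb2, for example, went from -0.28 with an adjusted p of 0.170 to -0.45 ± 0.07 (SE) with an adjusted p of 3.92e-04. Replicate numbers 1 to 4 are shared by the wild type tissues. With the replicate number as a block, 2 members were higher, Prim1 and Top2a, and 2 lower, Mcm6 and Gins1. Of all genes 33.6% passed there, 15.8% higher and 17.9% lower. Leaving out codes 7_1 and 7_6 left Prim1 higher and Mcm6 and Gins1 lower, where 35.8% of all genes passed, 19.4% lower and 16.5% higher.

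Markers of other cells were read in the same libraries. The mean log2(RPKM + 1) of the 7 meningeal genes was 0.56 to 3.36 in wild type and 0.73 to 0.84 in knockout striatum, and 2.73 to 3.33 and 3.22 to 4.17 in wild type and knockout hippocampus. That of the 3 intermediate progenitor genes was 1.28 to 3.15 and 1.18 to 1.65 in striatum, and 3.36 to 3.76 and 3.18 to 3.49 in hippocampus. Of 8 radial glia genes 4 passed as lower in wild type striatum and 1 as higher, with a median difference of -0.39 over the 8. Of 6 microglial genes 5 fell, with a median of -0.59, and of 5 endothelial genes 4 fell, with a median of -0.41. Of 5 subpallial progenitor genes 4 rose, with a median of 1.49, as did 4 of 5 genes of oligodendrocyte precursors, with a median of 0.46. Lum was listed at 0 in 1 wild type striatal library and Neurog1 in 4 knockout striatal libraries. Their part in the members' tissue differences was not tested.

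**Figure D3:**
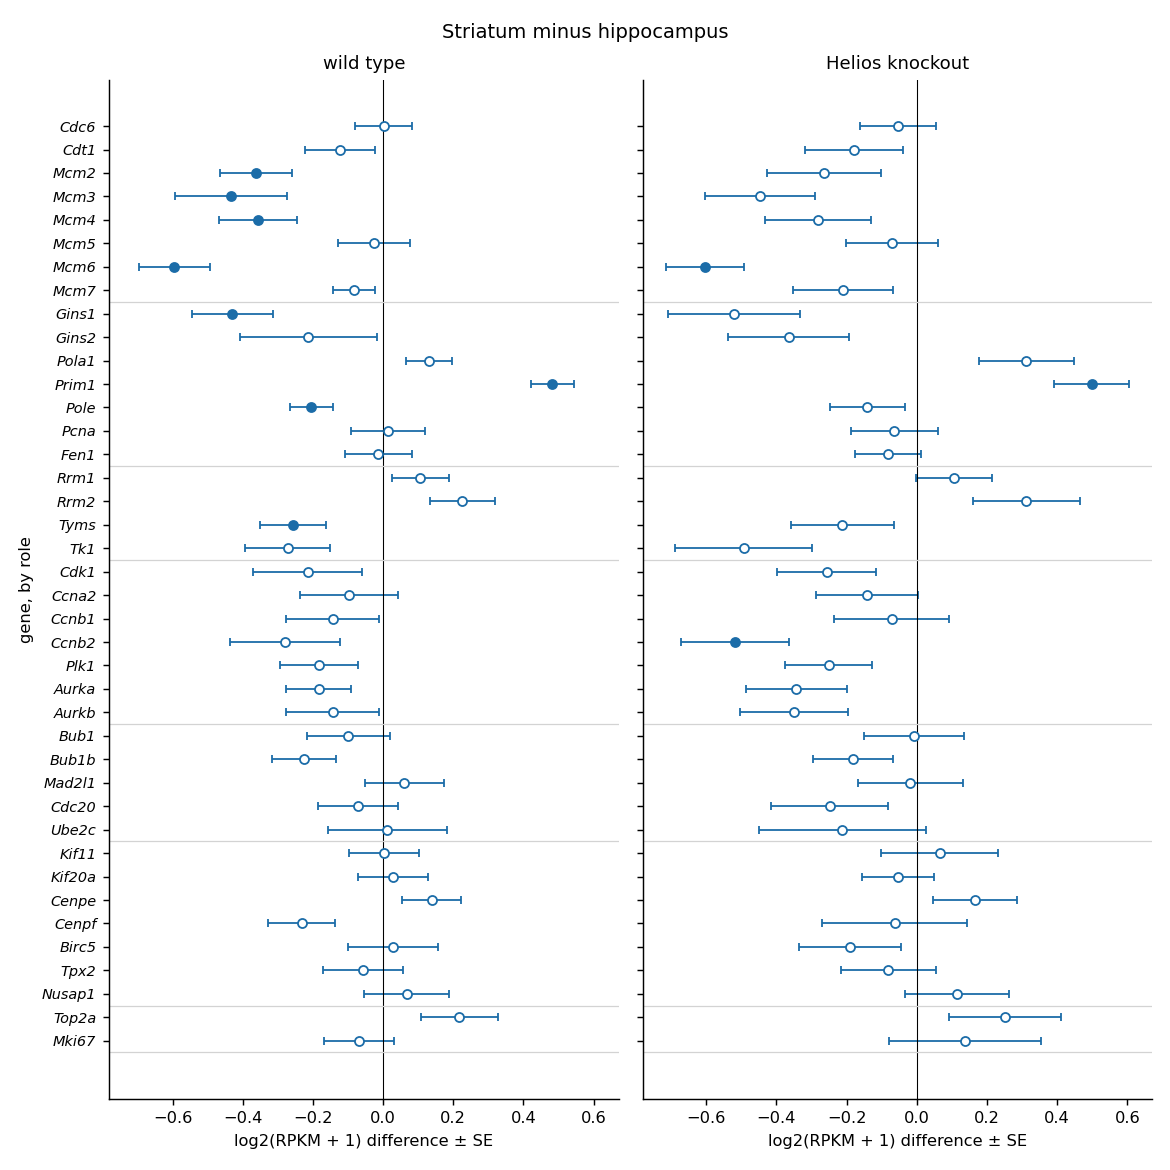
Difference of striatum from hippocampus in log2(RPKM + 1) for the 40 members, with bars of ± SE, in wild type and in knockout libraries; filled points passed an adjusted p of 0.05 and grey lines part the role groups. In wild type 8 points are filled, in knockout 3, with Mcm6 near -0.60 and Prim1 near 0.50 in both.

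In knockout libraries the same contrast of tissues had 3 of 40 members past the threshold, 1 higher and 2 lower in striatum, where 29.4% of all 14078 genes passed, 13.3% higher and 16.1% lower. Mcm6 was 12.0, 14.2, 17.2, 14.8 and 18.8 RPKM in knockout striatum, in the order of replicates 6 to 10, and 21.5, 23.4, 24.6, 25.1 and 23.9 RPKM in knockout hippocampus, in the order 5, 7, 8, 9 and 10. Prim1 was 14.6, 15.1, 14.6, 14.0 and 17.9 RPKM in knockout striatum and 9.37, 9.88, 13.4, 9.30 and 10.7 RPKM in knockout hippocampus. Neither gene overlapped between the tissues, as in wild type, and 14.3% of all genes were lower and 14% higher without overlap. The difference was -0.60 ± 0.11 (SE), adjusted p = 0.00165 for Mcm6 and 0.50 ± 0.11 (SE), adjusted p = 0.00448 for Prim1, in limma.

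Ccnb2, a B-type cyclin that activates CDK1, was 5.13, 4.74, 7.22, 6.20 and 9.35 RPKM in knockout striatum and 8.22, 10.7, 10.8, 8.70 and 9.59 RPKM in knockout hippocampus. Replicate 10 reached the hippocampal values and the other striatal libraries were below them. The difference was -0.52 ± 0.15 (SE), adjusted p = 0.0261. Mcm3 was 6.41, 6.22, 8.18, 7.52 and 11.9 against 10.0, 12.3, 9.22, 11.4 and 12.6 RPKM and, at -0.45 ± 0.16 (SE), adjusted p = 0.0523, did not pass. Over the 40 members the median was -0.14, and 31 differences were below 0, as were 50.7% of those of all genes. An unadjusted p below 0.05 was found for 9 members and 39.3% of all genes. Without striatum knockout replicate 10, 8 members were lower and 1 higher, where 14.6% and 11.4% of all genes were. The 8 were Mcm6, Ccnb2, Mcm3, Aurka, Gins1, Aurkb, Cdk1 and Tk1. Without hippocampus knockout replicate 8, 4 were lower, Mcm6, Mcm4, Mcm3 and Ccnb2, and Prim1 was higher, where 43.1% of all genes passed, 22.1% lower and 21% higher. Without codes 7_1 and 7_6, Mcm6 was lower and Prim1 higher, where 18.7% of all genes passed, 10.1% lower and 8.6% higher.

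Other genes of the same processes were read from lists of 38 replication genes, 35 mitosis genes and 21 cell cycle transcription factors. Between the wild type tissues, where 21.2% of all genes were higher and 23.6% lower, 4 of the 38 replication genes rose in striatum and 6 fell. The smallest p belonged to Rpa1, the large subunit of the single-strand binding protein RPA, at 9.51 ± 0.969 RPKM in striatum and 16.2 ± 1.32 RPKM in hippocampus (SD, n = 5), a difference of -0.71 ± 0.07 (SE), adjusted p = 1.68e-05. Of 33 mitosis genes tested, 1 fell and none rose. It was Pttg1, securin, at -0.44 ± 0.13 (SE), adjusted p = 0.0190. Of 20 transcription factors tested, 4 rose and 4 fell, with the smallest p for Rb1, the retinoblastoma pocket protein that restrains E2F, at -0.34 ± 0.05 (SE), adjusted p = 2.49e-04. Medians of the lists were -0.04, -0.09 and 0.07. Between the knockout tissues, where 13.3% of all genes were higher and 16.1% lower, 2 replication genes rose and 5 fell, 2 mitosis genes fell, and 1 transcription factor rose and 1 fell. No gene of these lists passed between the genotypes in either tissue.

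Knockout striatum was then compared with wild type striatum. No member passed, and no gene among the 14338 tested (0%) did. The smallest adjusted p over all genes was 0.0869. Ikzf2 was thus not called in this fit, although its RPKM did not overlap between the striatal genotypes. The lack of calls therefore does not show that the members were unchanged. Of the members 0 had an unadjusted p below 0.05, where 579 genes, 4.04%, did. limma voom on recovered reads called 1 gene, which was no member. The difference was below 0 for 36 of the 40 members, with a median of -0.14, and for 50.6% of all genes, with a median of 0.00. The exceptions were Gins1, Pola1, Prim1 and Tyms. The differences of the members are not independent of each other, since the members varied together between libraries.

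The smallest unadjusted p among the members was that of Cdc6, with 1.12, 0.927, 1.40, 0.895 and 1.59 RPKM in knockout and 1.36, 1.44, 1.41, 1.86 and 1.27 RPKM in wild type striatum, a difference of -0.18 ± 0.10 (SE), adjusted p = 0.985. Plk1, the polo-like kinase that drives entry into and passage through mitosis, was 5.46, 4.76, 6.93, 5.28 and 7.32 RPKM in knockout and 6.56, 7.20, 6.11, 10.0 and 5.96 RPKM in wild type, a difference of -0.23 ± 0.14 (SE), adjusted p = 0.985. Aurkb, the kinase of the chromosomal passenger complex, was 5.02, 5.01, 7.02, 5.71 and 9.06 against 7.27, 7.62, 6.29, 11.8 and 6.60 RPKM, a difference of -0.27 ± 0.18 (SE), adjusted p = 0.985. In all 3 the groups overlapped, with the highest value in wild type replicate 4 and the highest knockout value in replicate 10.

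Rrm1, the large subunit of ribonucleotide reductase, had 17.1, 17.6, 19.9, 18.0 and 25.4 RPKM in knockout and 21.6, 21.9, 18.9, 27.0 and 20.7 RPKM in wild type striatum, a difference of -0.16 ± 0.11 (SE), adjusted p = 0.985. Top2a, the topoisomerase that untangles chromosomes, was 17.4, 18.1, 25.6, 20.7 and 31.2 against 24.3, 24.9, 22.2, 34.3 and 22.4 RPKM, and Pcna had 48.0, 55.2, 53.9, 54.1 and 74.7 RPKM in knockout striatum. Knockout replicates 6 and 7 were the low end of the members in this tissue, below the mean of the others of their group in all 40. Replicates 8 and 10 were above that mean in 34 and in all 40. By role, the median difference was -0.14 for licensing, -0.04 for fork genes, -0.14 for nucleotide supply, -0.22 for cyclins and kinases, -0.11 for checkpoint and anaphase, -0.16 for spindle and kinetochore and -0.17 for the chromosome genes Top2a and Mki67.

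The median moved with the highest library of each group. Without wild type replicate 4 it was -0.06 and 28 of 40 differences were below 0, as were 49.5% of those of all genes. Without knockout replicate 10 it was -0.23 and 39 of 40 were below 0, as were 51.5% of those of all genes, and 6 had an unadjusted p below 0.05, where 5.54% of all genes did. Without wild type replicate 4, Plk1 was at -0.11, Aurkb at -0.14 and Rrm1 at -0.09, and without knockout replicate 10 Rrm1 was at -0.26. No member passed the adjusted threshold in either case, and 2 genes (0.014%) did without wild type replicate 4, both lower.

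Markers of other cells were also read between the striatal genotypes, and none passed the adjusted threshold. All 3 erythroid genes tested were below 0 in knockout, with a median of -0.81, and all 3 ependymal genes tested were above 0, with a median of 0.49, each with an unadjusted p below 0.05. All 5 subpallial progenitor genes were below 0, with a median of -0.20. Of 8 radial glia genes 4 were below 0 and 4 above, with a median of -0.01. The 1 intermediate progenitor gene tested was at -0.74, with an unadjusted p below 0.05 in limma. Of 3 meningeal genes tested 2 were below 0 and 1 above, with a median of -0.72. In hippocampus the medians were -0.37 over 4 erythroid genes, all below 0, and 0.49 over 3 ependymal genes, all above 0. Both of the 2 intermediate progenitor genes tested there were below 0, with a median of -0.33 and unadjusted p below 0.05 in limma. All 5 meningeal genes tested were above 0, with a median of 0.29. Radial glia genes were split, 4 below 0 and 4 above, with a median of -0.04. Of 3 subpallial progenitor genes tested 2 were below 0 and 1 above, with a median of -0.02. The part of these cells in the members' genotype differences was not tested.

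**Figure D4:**
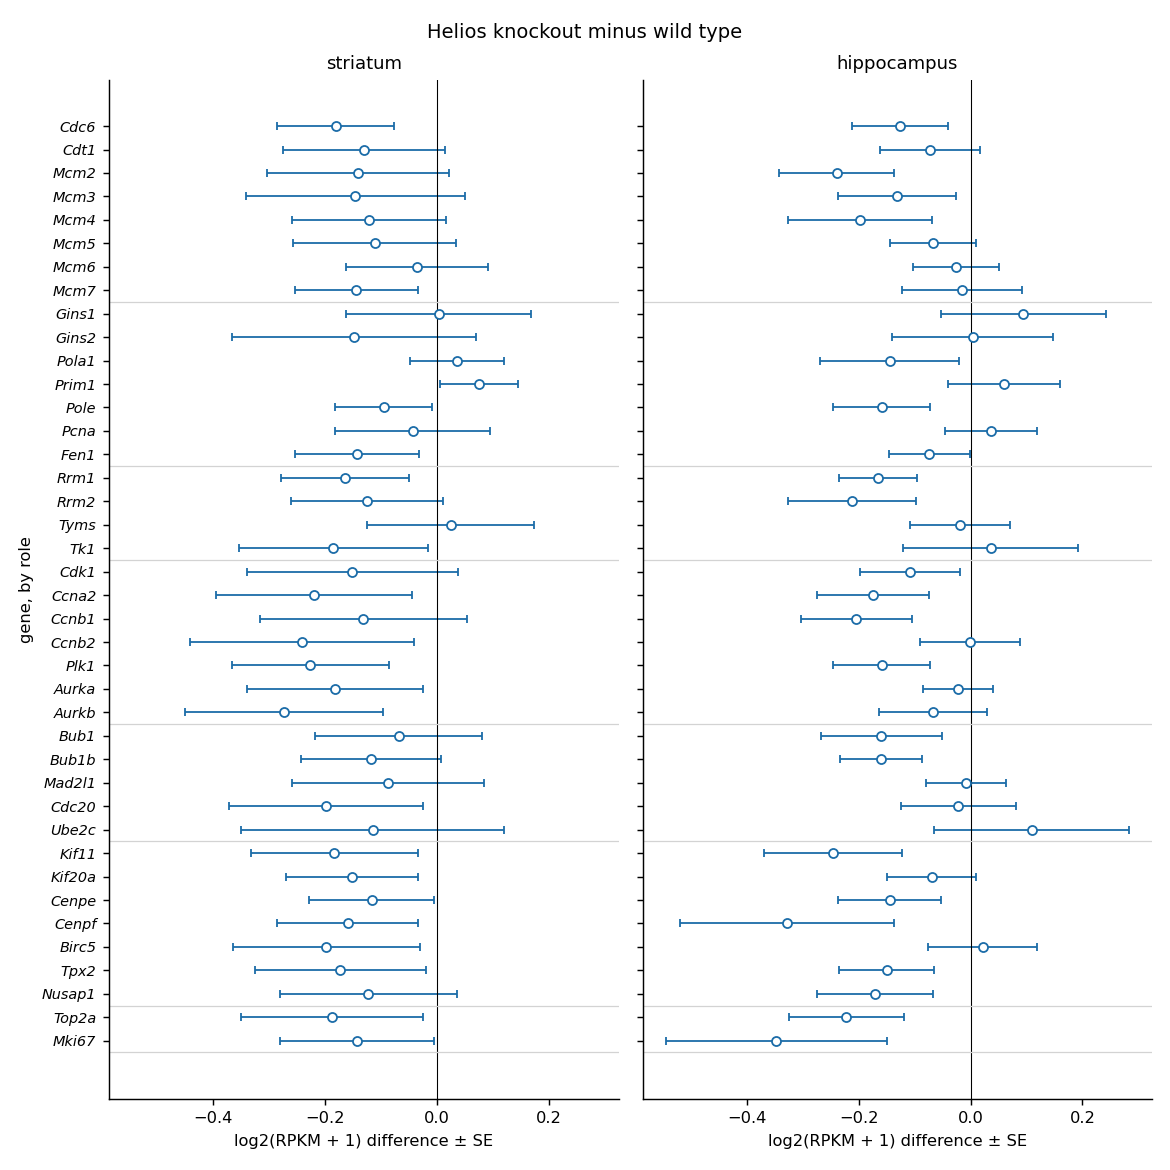
Difference of knockout from wild type in log2(RPKM + 1) for the 40 members, with bars of ± SE, in striatum and in hippocampus; open points did not pass an adjusted p of 0.05. All points are open, and 36 of 40 in striatum and 33 of 40 in hippocampus lie below 0.

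In hippocampus no member passed either, nor did any of 14094 genes (0%), and limma voom on recovered reads called 0 genes. Ikzf2 was thus not called here either. An unadjusted p below 0.05 was found for 2 members and for 642 genes, 4.56%. The difference was below 0 for 33 of the 40, with a median of -0.12, and for 51.8% of all genes, with a median of -0.01. The 2 members were Rrm1 and Mcm2. Rrm1 was 17.7, 19.0, 15.9, 18.1 and 19.2 RPKM in libraries labelled knockout and 20.6, 18.3, 20.8, 20.8 and 20.9 RPKM in those labelled wild type, a difference of -0.17 ± 0.07 (SE), adjusted p = 0.717. Mcm2 was 9.14, 10.8, 7.04, 9.99 and 9.73 against 12.4, 9.96, 10.5, 11.2 and 11.6 RPKM, a difference of -0.24 ± 0.10 (SE), adjusted p = 0.717. In both genes the groups overlapped, and knockout replicate 8 was the lowest of all 10 libraries.

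Next by p were Bub1b, the checkpoint protein BUBR1, and Top2a. Bub1b had 5.91, 7.45, 5.78, 7.09 and 6.44 RPKM in knockout and 7.23, 7.24, 7.32, 7.36 and 7.79 RPKM in wild type hippocampus, a difference of -0.16 ± 0.07 (SE), adjusted p = 0.717. Top2a was 17.5, 21.9, 14.9, 19.0 and 19.5 against 22.0, 19.1, 20.4, 23.0 and 24.0 RPKM, a difference of -0.22 ± 0.10 (SE), adjusted p = 0.717. Knockout replicate 8 was again the lowest, and the genes are 3669 and 5217 bases long. Without that library all 40 differences were below 0, with a median of -0.10, as were 55.6% of those of all genes, the smallest adjusted p among the members was 0.453, and Mcm2 was at -0.15. An unadjusted p below 0.05 was then found for 2 members and 9.28% of all genes. Without codes 7_1 and 7_6, whose Ikzf2 went against the labels, 24 of 40 were below 0 with a median of -0.06, as were 51.2% of those of all genes, and 0 members had an unadjusted p below 0.05, where 3.48% of all genes did.

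Members with the highest level in their role overlapped between the genotypes in both tissues. Ccna2, cyclin A, was 13.6, 18.0, 13.2, 16.9 and 17.3 RPKM in knockout and 19.4, 15.9, 17.4, 17.3 and 19.4 RPKM in wild type hippocampus, a difference of -0.17. In striatum it was 11.1, 12.1, 16.4, 13.4 and 18.8 against 16.0, 15.4, 13.4, 25.5 and 14.9 RPKM, a difference of -0.22. Ube2c, the ubiquitin-conjugating enzyme of the anaphase-promoting complex, was 13.2, 14.7, 29.1, 19.0 and 17.5 against 16.8, 14.9, 16.9, 16.2 and 18.4 RPKM in hippocampus and 12.0, 11.5, 17.0, 14.3 and 25.5 against 15.3, 16.9, 12.9, 28.3 and 13.8 RPKM in striatum. Kif11, the kinesin that separates spindle poles, was 9.05, 11.2, 6.58, 10.3 and 10.6 against 12.0, 10.0, 11.1, 11.5 and 12.3 RPKM in hippocampus and 8.13, 8.18, 11.0, 9.11 and 14.0 against 11.9, 11.2, 9.92, 14.8 and 9.61 RPKM in striatum. Of their annotated exonic bases, Ube2c shares 592 with Tnnc2 and Ccna2 shares 510 with Exosc9, both on the opposite strand. Over all annotated transcripts Ube2c has 2600 exonic bases and Ccna2 4083, while the lengths found in the deposited values are 931 and 2811. Whether the shared bases were counted is uncertain. In hippocampus Ube2c was highest and Kif11 lowest in knockout replicate 8. Pcna had 49.7, 58.1, 66.7, 60.4 and 62.1 RPKM in knockout hippocampus. Mcm7 had 25.9, 28.9, 39.3, 26.1 and 30.8 RPKM there and 21.5, 23.7, 27.6, 23.4 and 33.7 RPKM in knockout striatum.

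Whether the genotype difference itself differed between the tissues was tested as an interaction over 14525 genes. No member and no gene passed (0%), 0 members and 491 genes, 3.38%, reached an unadjusted p of 0.05, and 0 genes were called by limma voom on recovered reads. The median of the members was -0.03, and 23 of the 40 differences were below 0, as were 49% of those of all genes. The members with the smallest p were Pola1 at 0.18 ± 0.15 (SE), adjusted p = 0.803, Birc5 at -0.22 ± 0.20 (SE), adjusted p = 0.803, Ccnb2 at -0.24 ± 0.23 (SE), adjusted p = 0.803 and Aurkb at -0.21 ± 0.21 (SE), adjusted p = 0.803. Without striatum wild type replicate 4, Birc5 was at -0.10, Ccnb2 at -0.07 and Aurkb at -0.07, and without hippocampus knockout replicate 8 Pola1 was at 0.06. Pola1 had 3.55, 3.56, 3.97, 4.22 and 4.70 RPKM in knockout and 3.77, 3.46, 3.78, 4.52 and 3.83 RPKM in wild type striatum. In knockout hippocampus it had 3.03, 3.52, 1.84, 3.43 and 3.56 against 3.48, 3.30, 3.41, 3.74 and 3.27 RPKM in wild type, the lowest value being that of knockout replicate 8, and Pola1 is 5347 bases long. Birc5, survivin of the chromosomal passenger complex, had 2.79, 2.64, 3.97, 3.11 and 4.85 RPKM in knockout against 4.21, 3.83, 3.10, 6.12 and 3.46 RPKM in wild type striatum. It had 3.44, 4.10, 5.27, 3.97 and 3.54 against 4.21, 3.65, 3.59, 4.05 and 4.29 RPKM in hippocampus, and all groups overlapped. Aurkb had 6.80, 8.80, 10.2, 7.72 and 7.79 RPKM in knockout and 9.12, 7.83, 8.78, 8.25 and 9.28 RPKM in wild type hippocampus, and Plk1 had 6.60, 8.43, 6.43, 6.46 and 8.27 against 8.24, 7.46, 8.62, 7.96 and 8.48 RPKM. Cdc6 had 1.15, 1.40, 0.924, 1.36 and 1.48 against 1.66, 1.40, 1.22, 1.41 and 1.63 RPKM, and in knockout hippocampus Cdc6 and Plk1 were both lowest in replicate 8.

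**Figure D5:**
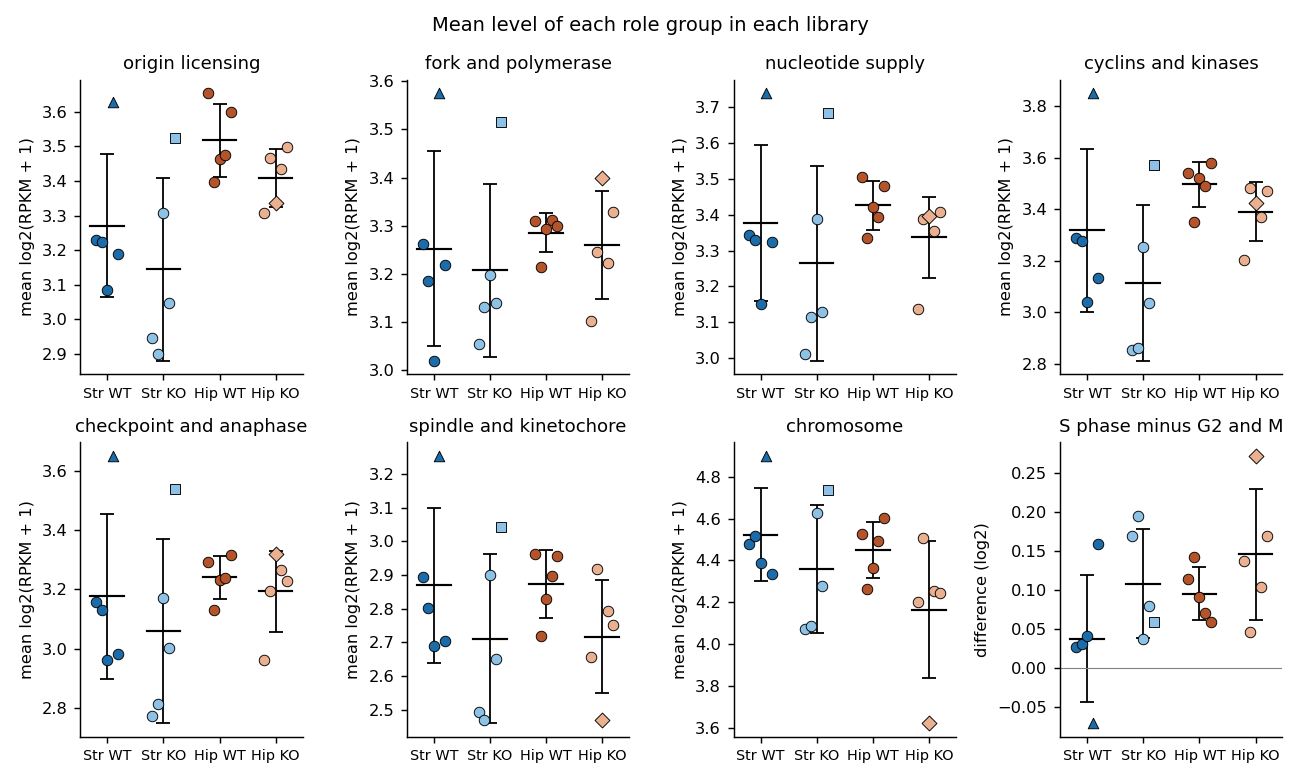
Mean log2(RPKM + 1) of the members of each role group in each library, and in the last panel the mean of the S phase groups minus that of the G2 and M groups; the vertical axes do not start at 0. Str is striatum, Hip hippocampus, lines with bars are the mean ± SD of 5 libraries, and the triangle, square and diamond are striatum wild type replicate 4, striatum knockout replicate 10 and hippocampus knockout replicate 8. In each of the 7 groups the triangle is the highest wild type striatal library, at 3.63 for licensing and 4.90 for the chromosome genes.

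In striatum the members varied together. After removal of the group means, the Pearson correlation between members over the 10 striatal libraries had a median of 0.899 over 780 pairs, and all 780 were above 0. The points share library depth and normalization, and no p is given. It was 0.933 among the G2 and mitosis genes and 0.860 among the S phase genes, and Prim1 had the lowest median with the others, 0.544. Without wild type replicate 4 the median was 0.865 (n = 9), and without knockout replicate 10 as well it was 0.737 (n = 8). In hippocampus the median was 0.380 over 10 libraries and 522 of the 780 pairs were above 0. Without knockout replicate 8 it was 0.616 (n = 9), with 752 pairs above 0.

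The mean over the members was also read in each library. Averaged over the 40, log2(RPKM + 1) was 3.25, 3.22, 3.05, 3.67 and 3.14 in wild type striatum and 2.91, 2.93, 3.26, 3.06 and 3.53 in knockout striatum. It was 3.44, 3.24, 3.34, 3.36 and 3.43 in wild type and 3.12, 3.35, 3.23, 3.28 and 3.33 in knockout hippocampus. The SD over 5 libraries was 0.24 and 0.26 in striatum and 0.08 and 0.09 in hippocampus, and the difference in spread was not tested. It was 0.09 in wild type striatum without replicate 4 and 0.16 in knockout striatum without replicate 10 (n = 4). In knockout hippocampus it was 0.05 without the library labelled replicate 5 (n = 4). The balance of S phase over G2 and mitosis genes, as a difference of mean log2(RPKM + 1), was 0.04 ± 0.08 in wild type striatum, 0.11 ± 0.07 in knockout striatum, 0.10 ± 0.03 in wild type hippocampus and 0.15 ± 0.08 in knockout hippocampus (SD, n = 5). The 4 ranges overlapped. The lowest balance, -0.07, was in striatum wild type replicate 4, without which the mean was 0.06 (n = 4), and the highest, 0.27, in hippocampus knockout replicate 8.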

How the data were processed

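Per the labels' protocols, a strand-keeping TruSeq mRNA kit and single-end NextSeq500 sequencing were used. The submitters' processing notes name BWA 0.7.4, featureCounts and HTSeq, besides bcl2fastq 2.15.0, cutadapt 1.3, DESeq2, CASAVA 1.8.2, SAMtools, FastQC 0.11 and build mm10, without role or order, and strand use in counting is not given. The authors deposited RPKM per gene and library. In the table as used, 51.1% of values, those of 1 or more, had lost the decimal mark. Marks were restored where RPKM times effective library size and gene length lay within 1e-06 of whole reads, with an allowance for rounding. Where more than 1 place gave whole reads, the place nearest the median of the tissue's libraries was taken, after library offsets by gene length. The decimal places thus rested partly on the other libraries of the tissue. Of 23166 genes restored, 811 had an unsure mark in either tissue and were left out there, as were 498 genes with lost marks and no annotation, and 4013 were at 0 throughout. Genes that reached an RPKM of 0.5 in 5 or more libraries were tested with limma 3.58.1 (trend, robust, R 4.3.3) on log2(RPKM + 1), Benjamini-Hochberg adjusted over all genes tested and called at 0.05. The count test of the plan was not used because the values were RPKM. The authors' own comparison tables were not used here. Library pairs within groups all differed by more than counting noise, with a smallest chi-square per degree of freedom of 11.8. Groups and replicate numbers came from the titles. Between the tissues, deviations of same-numbered libraries from their group means correlated at 0.109 to 0.176 for wild type replicates 1 to 4. For knockout replicates 7, 8, 9 and 10 the correlations were 0.0902, -0.187, 0.222 and 0.115. Libraries of unlike number reached 0.117 in wild type, striatum 1 with hippocampus 3. In knockout they reached 0.374, striatum 10 with hippocampus 8. The correlations do not settle whether same-numbered libraries pair. Restoration and fit were tried on simulated data, and the outcomes are not given here. The trial of restoration used annotated genes without an unsure mark and took their restored lengths and library sizes as true. It could therefore not reveal a wrong length in the deposited values or judge the unsure genes. Members, lists and tests were chosen with earlier results of these data known. Values in every library are given for the members with the smallest p (8 in the wild type tissue comparison, 4 in each genotype comparison and in the interaction) and the highest level in each role. From the other lists, the gene with the smallest p is named. Genes named beyond these were chosen after their values were seen. Alternatives were another pseudocount (0.1), no filter, median ratio scaling, limma voom on recovered reads, unsure marks kept, the replicate block and libraries left out.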

Additional observations from a re-analysis of the deposited data

Results flagged for a closer look

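Of 120 sets of 5 libraries (22 named members, 7 role groups and the balance, in 4 groups), 18 had a library far from the other 4 by Dixon's test, which chance gives in about 1 in 20. The sets are not independent, since the members varied together and the role groups are means of members. The count can therefore not be weighed against that rate. In 12 of the 18 the library was striatum wild type replicate 4, which was high.

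In striatum wild type replicate 4, RPKM was 14.4 for Mcm3 (the others 6.86 to 8.29), 14.7 for Mcm4, 3.22 for Pole and 3.59 for Tyms. It was 12.8 for Ccnb2, 11.8 for Aurkb, 25.5 for Ccna2 and 28.3 for Ube2c. It was 34.3 for Top2a and 1.86 for Cdc6. The mean log2(RPKM + 1) of this library was 3.63 for licensing and 3.65 for checkpoint and anaphase genes, with the others at 3.09 to 3.23 and 2.96 to 3.16. Striatum knockout replicate 10 was high in Prim1, at 17.9 RPKM, and in Pcna, at 74.7 RPKM. In wild type hippocampus, Rrm1 was low in replicate 2, at 18.3 RPKM, as was the mean of the fork genes, at 3.21, and Bub1b was high in the library labelled replicate 6, at 7.79 RPKM. The mean of the nucleotide genes was low in the library labelled hippocampus knockout replicate 5, at 3.14.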

How the results depend on the processing

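Between the wild type tissues, 7 members were lower and 1 higher. Leaving out 1 library at a time gave 4 to 20 lower and 1 to 2 higher. The 20 came without striatum replicate 4, and the 4 without hippocampus replicate 1 or striatum replicates 2, 3 or 5. Median ratio scaling gave 2 higher, as did leaving out striatum replicate 3. The replicate block gave 2 higher and 2 lower, and leaving out codes 7_1 and 7_6 gave 2 lower. Between the knockout tissues, 2 were lower and 1 higher. Leaving out 1 library gave 1 to 8 lower, the 8 without striatum replicate 10, the 4 without hippocampus replicate 5 or 8, and the 1 without hippocampus replicate 7 or 10 or striatum replicates 6, 7 or 9. The block, which pairs knockout replicates 7 to 10 by number, gave 0 higher and 1 lower, and leaving out codes 7_1 and 7_6 gave 1 lower. All genes called there went from 4133 to 2370 with the block and 2545 without the codes.

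Mcm6 was called in both tissue comparisons under every alternative run, and Prim1 in wild type under every one and in knockout except with the block (adjusted p = 0.0562). Mcm3 and Tyms in wild type were lost in 11 and 12 of 17 alternatives, Mcm4 in 6, and Mcm2 and Pole in 2. Ccnb2 in knockout was lost in 7 of 17, with adjusted p from 0.0041 to 0.11. The genotype comparisons and the interaction called 0 members under every alternative run. All genes called in striatum went from 0 to 2 without wild type replicate 4 and to 1 with limma voom. The median over members stayed below 0 in both genotype comparisons, between -0.23 and -0.06 in striatum and -0.14 and -0.06 in hippocampus, and ran from -0.13 to 0.08 in the interaction. Aurkb in the interaction went from a log2 difference of -0.21 to 0.0041, a change of sign, without both libraries that stand apart. It was called in neither. This alternative was chosen after the data were seen, and the cause was not tested. The spread of the members' mean and the balance without single libraries were also added after the data were seen. Depth limits Cdc6 and Gins2 most, with as few as 77 and 80 reads.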
